A study of Homo sapiens with 8 samples.

Results

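The comparison described here sets the loss of mir-200c directly against the loss of its neighbour mir-141 in SK-BR-3, an epithelial breast cancer cell line with amplified ERBB2 (HER2). It uses the 4 single-knockout clones of the 8 libraries in the series, which comprised wild type cells, mir-141 knockout clones, mir-200c knockout clones and double knockout clones, with 2 libraries each. The knockouts were made with TALENs, engineered nucleases assembled to recognise a given stretch of genomic DNA. The libraries formed 2 experimental sets, each with 1 wild type and 1 clone of each knockout genotype. In set 1 the mir-141 knockout was clone 23, the mir-200c knockout clone 11 and the double knockout clone 55. In set 2 they were clones 10, 29 and 61. The labels give no agent or treatment that separates the groups.

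The deposited table gives, for 9245 mRNA entries with 9241 distinct gene symbols, the log2 ratio of each clone to the wild type of its own set. The quantity used below is the ratio of the mir-200c knockout minus the ratio of the mir-141 knockout of the same set, called the difference. The wild type cancels in it, a positive value means more RNA in the mir-200c knockout, and a difference of 1 is a 2-fold difference. Expression levels, read counts and sequencing depth are not given, so the counting error behind a ratio is unknown. Each set holds 1 clone per genotype, so within a set a genotype and its clone cannot be told apart. Set 1 is described first and in most detail, because values of set 2 may stand beside wrong gene names. A set 2 value given below beside a gene name therefore cannot show whether that gene repeated its set 1 value. The same holds for set 2 medians, counts and shares over genes grouped by list, seed site or position. With wrong names these would mix values of other genes. Over all entries the differences of both sets had a Pearson r of 0.0137, a description across genes with no samples shared, and 49.9% had the same sign.

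The mir-200 family consists of microRNAs abundant in epithelial cells, known for holding down ZEB1 and ZEB2, transcription factors that repress epithelial genes. A microRNA guides a silencing complex to mRNAs, mainly by pairing of its seed, bases 2 to 8 from the 5′ end, with sites in the 3′ untranslated region, so loss of a microRNA is known to relieve its direct targets. mir-200c and mir-141 are cut from neighbouring hairpins of a shared transcript but carry different seeds. By the RefSeq table (GRCh38.p14) both lie on the plus strand of chromosome 12, MIR200C from 6963699 to 6963766 and MIR141 from 6964097 to 6964191, with 330 bases between them. The mature sequences follow because the comparison rests on their seeds, which are in capitals.
hsa-miR-200c-3p: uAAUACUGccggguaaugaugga
hsa-miR-141-3p: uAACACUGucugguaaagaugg
hsa-miR-200b-3p: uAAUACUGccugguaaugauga
hsa-miR-429: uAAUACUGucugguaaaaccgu
hsa-miR-200a-3p: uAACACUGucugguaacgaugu
Within the seed, mir-141-3p and mir-200c-3p differ by C4U, counted from the 5′ end with the mir-141-3p base first. Outside it they differ by U9C, U11G and A17U. The remaining sequences belong to a second cluster on chromosome 1, which the knockouts did not target: mir-200b-3p and mir-429 share the mir-200c-3p seed, and mir-200a-3p shares that of mir-141-3p.

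In set 1, lists of contractile, interferon and inflammatory genes stood higher in the mir-200c clone (median differences of 0.31, 0.30 and 0.38), and a list of hormone receptor genes stood higher in the mir-141 clone (−0.37). The lists were written with earlier results of these data known, so these medians are descriptions only. Over all entries the median difference was −0.02 with an SD of 0.38, and the central 95% of entries ran from −0.69 to 0.79. The mir-200c clone stood further from wild type than the mir-141 clone, with SDs of the ratios of 0.43 and 0.31. The order was the other way in set 2, with 0.36 for the mir-200c clone and 0.40 for the mir-141 clone. The difference exceeded 1 for 117 entries (1.27% of all) and was below −1 for 78 (0.844%), so that 195 (2.11%) lay beyond 1. Of these, 9 and 7 lay beyond 2.

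**Figure D1:**
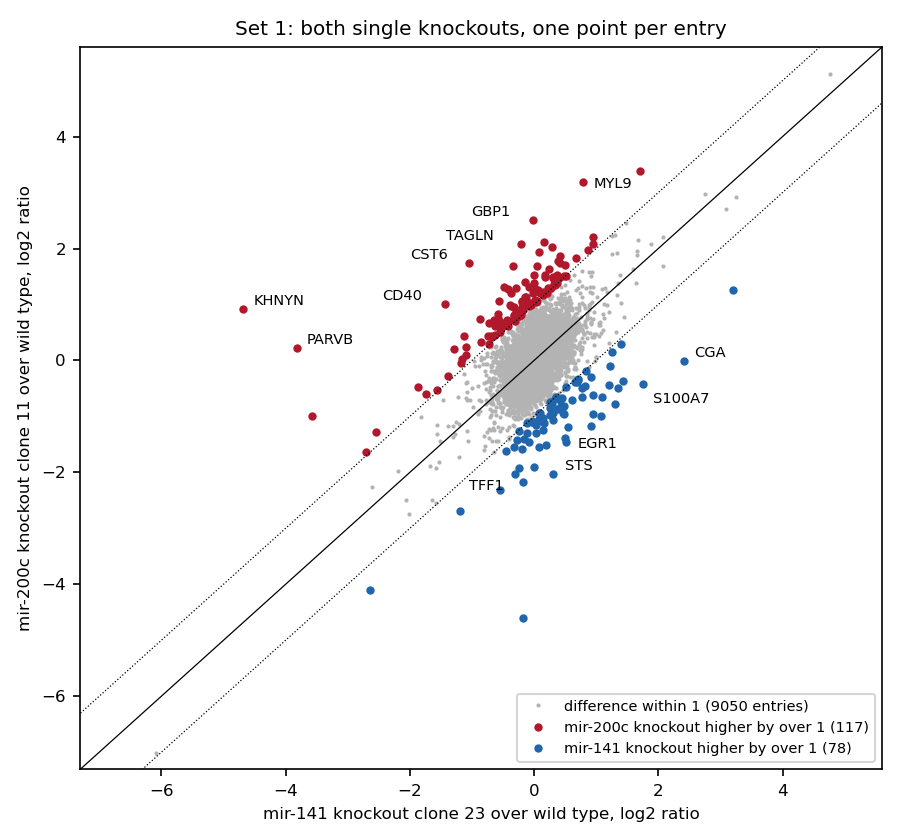
Log2 ratios to wild type in set 1, with the mir-141 knockout on the x axis and the mir-200c knockout on the y axis. Each point is 1 entry; the solid line marks equal ratios and the dotted lines a difference of 1. The 117 red and 78 blue points lie mostly above or below the centre of the cloud, where the mir-141 ratio is near 0.

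Several of the 20 highest differences belonged to genes of actin and matrix. MYL9, the regulatory light chain of non-muscle myosin (chromosome 20, 36541484 to 36551447, GRCh38), stood at 0.79 in the mir-141 clone, 3.20 in the mir-200c clone and 3.01 with both lost. Its difference was 2.41, a 5.31-fold higher RNA ratio, and the double knockout lay beside the mir-200c clone. TAGLN, the actin-binding protein transgelin (chromosome 11, 117199321 to 117204782), showed another arrangement, at −0.22, 2.08 and −0.41 in the same order, with the double knockout beside the mir-141 clone. MICAL1, an oxidase that disassembles actin filaments, stood at −0.34, 1.69 and 0.59, and FHL2, a LIM-domain cofactor, at −0.57, 1.06 and 0.40. COL5A1, a fibrillar collagen chain, was at −0.29, 1.29 and −0.09. In set 2 the entries under these 5 names had differences of 0.02, −0.05, −0.33, 0.07 and −0.09, though those names may be wrong.

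Other genes of the upper end were high in the mir-200c clone or split between the clones. GBP1, an interferon-induced guanylate-binding protein (chromosome 1, 89052319 to 89065360), was at −0.01 in the mir-141 clone, 2.50 in the mir-200c clone and 1.68 with both lost. CD40, a receptor of the tumour necrosis factor family (chromosome 20, 46118272 to 46129863), was below wild type in the mir-141 clone at −1.44, above it in the mir-200c clone at 1.01, and at −0.10 in the double knockout. The same split was seen for CST6, the secreted protease inhibitor cystatin E/M (chromosome 11, 66011841 to 66013505). CST6 was at −1.05, 1.73 and −0.15, a 6.88-fold difference between the single knockouts. STAT5A, a transcription factor of prolactin signalling, was at −0.48, 1.32 and −0.08, and ATF3, a stress-induced factor, at 0.05, 1.70 and 1.13. HLA-B, a class I antigen-presenting molecule, was at −0.41, 1.27 and 0.23, and its value is uncertain because reads may be shared with near-identical HLA genes.

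The extreme of the upper end was carried by loss in the mir-141 clone, not by gain in the mir-200c clone. KHNYN, a cofactor of the antiviral protein ZAP (chromosome 14, 24429286 to 24441834), was at −4.68 in the mir-141 clone, 0.91 in the mir-200c clone and −3.12 with both lost. PARVB, the focal adhesion protein beta-parvin (chromosome 22, 43999211 to 44172949), was at −3.82, 0.22 and −2.24. NSMAF, an adaptor of the tumour necrosis factor receptor, was at −3.57, −0.996 and −3.62. All 3 were therefore low in both set 1 clones that lack mir-141. In set 1 the differences of KHNYN and PARVB were 48.3-fold and 16.5-fold. In set 2 the entries under these names had differences of −0.13 and 0.02, with the mir-141 clone at −0.28 and 0.01. As set 2 names may be wrong, this cannot show whether the set 1 differences were repeated.

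The remaining genes among the 20 highest were RAB32 at 1.95, a small GTPase of organelle transport, PPP1R14C at 1.86, an inhibitor of protein phosphatase 1, OSTM1 at 1.74, a subunit of a lysosomal chloride transporter, and NT5E at 1.68, the ecto-5′-nucleotidase CD73. MGMT, a DNA repair enzyme, had a difference of 1.62 and ACSF3, a mitochondrial malonyl-CoA synthetase, one of 1.57. NT5E was above wild type in all 3 clones of set 1, at 1.71, 3.39 and 2.45. Over the 20 highest, the mir-200c clone was beyond 0.5 from wild type for 18 and the mir-141 clone for 10. In set 2, 13 of the 20 had a difference above 0 (50.5% of all entries did), within a range of −0.41 to 0.64.

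The lower end held the entries with more RNA in the mir-141 knockout. CGA, the alpha subunit shared by the glycoprotein hormones (chromosome 6, 87085498 to 87095406, GRCh38), was at 2.41 in the mir-141 clone, −0.01 in the mir-200c clone and 2.06 with both lost. S100A7, the secreted protein psoriasin (chromosome 1, 153457744 to 153460701), was at 1.75, −0.43 and 2.05; its value is uncertain because a near-identical copy exists. Both were high in the set 1 clones without mir-141 and near or below wild type where only mir-200c was lost. STS, the sulfatase that releases active steroids (chromosome X, 7219456 to 7354810), was at 0.30, −2.03 and 0.78. TFF1, a trefoil peptide known as an oestrogen-responsive gene (chromosome 21, 42362282 to 42366594), was at −0.18, −2.17 and −0.55. For STS and TFF1 the low value belonged to the mir-200c clone, and the double knockout did not share its depth.

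Several other genes of the lower end had the single knockouts on opposite sides of wild type. EGR1, an immediate early transcription factor (chromosome 5, 138465490 to 138469315), was at 0.51, −1.45 and 0.26 in that order of clones. STAC2, an adaptor of calcium channels, was at 1.30, −0.79 and 2.17, CDK18, a cyclin-dependent kinase, at 0.91, −1.17 and 1.37, and PDE4B, a cyclic AMP phosphodiesterase, at 1.09, −0.65 and 1.02. In these 3 the double knockout was on the side of the mir-141 clone. PLXDC2, a plexin-domain membrane protein, and IRX6, a homeobox factor, behaved alike, with differences of −2.07 and −1.89. FABP5, a fatty acid carrier, was at 0.20, −1.50 and 0.15, and CPS1, the first enzyme of the urea cycle, at −0.31, −2.02 and 0.29. The FABP5 value is uncertain because of near-identical copies. NBL1, a secreted antagonist of bone morphogenetic proteins, was above wild type in all 3 clones, at 3.20, 1.25 and 2.30.

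The other genes of the 20 lowest were CCNO (−1.85), GTSF1 (−1.79), C11orf86 (−1.76), S100A1 (−1.73), the monocarboxylate transporter SLC16A5 (−1.90) and the histone genes HIST1H2BH (−4.42) and HIST1H2BG (−1.89). The histone values are uncertain, because histone genes share near-identical sequence. In set 2, 11 of the 20 lowest had a difference below 0, where 49.5% of all entries did. SLC16A5 was the sole gene of the 20 that was also below −1 there.

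**Figure D2:**
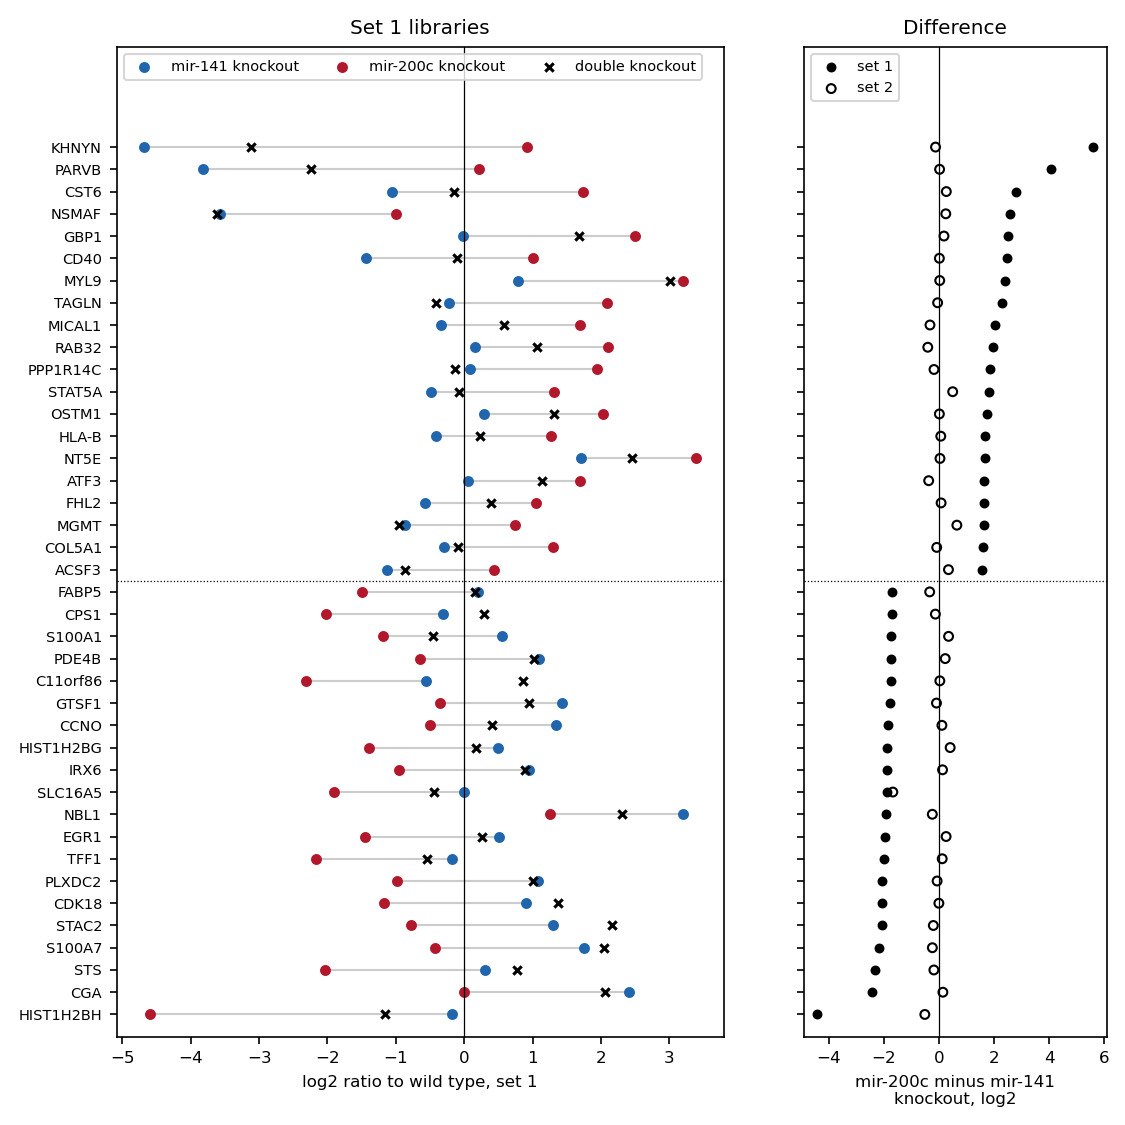
The 20 genes with the highest and the 20 with the lowest differences in set 1. Left, log2 ratios to wild type of the set 1 clones (blue, mir-141; red, mir-200c; crosses, double); right, the difference in set 1 (filled) and set 2 (open), log2. Filled points reach from −4.42 to 5.59, whereas open points gather near 0 except for SLC16A5 at −1.68.

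Most 2-fold differences came from the mir-200c clone alone. Counting a ratio beyond 0.5 as away from wild type, 76 of the 117 entries higher in the mir-200c knockout (65.0%) were above wild type only in that clone. A further 15 were below wild type only in the mir-141 clone, 14 lay on opposite sides, 7 were above wild type in both clones and 5 were below it in both. Of the 78 entries higher in the mir-141 knockout, 47 (60.3%) were below wild type only in the mir-200c clone, 17 were above it only in the mir-141 clone, 10 lay on opposite sides, 3 were below in both and 1 was above in both.

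Entries on opposite sides of wild type, each by more than 0.5, are a separate class. In 14 the mir-200c knockout was higher. Ranked by the ratio nearer to wild type, CST6, CD40, KHNYN and MGMT led these, followed by MCF2L, a guanine nucleotide exchange factor, at −0.72 in the mir-141 knockout and 0.67 in the mir-200c knockout. Also among them were TPM1, a tropomyosin that stabilises actin filaments, at −0.59 and 0.84, and ACSL5, a fatty acid activating enzyme, at −0.65 and 0.70. In 10 the mir-141 knockout was higher, led by PLXDC2, IRX6, CDK18, STAC2 and DIO2, the deiodinase that activates thyroid hormone, at 0.77 and −0.66.

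The double knockout of set 1, which was not used to form the difference, was set beside both single knockouts. Its ratio was nearer to that of the mir-200c clone for 44.6% of all entries. For the 117 entries higher in the mir-200c knockout this was so for 54 (46.2%), close to the share over all entries. For the 78 entries higher in the mir-141 knockout it was so for 12 (15.4%). Among the 47 entries that were low in the mir-200c clone alone, the median ratio was −1.10 in that clone and −0.02 in the double knockout, and 30 lay within 0.5 of wild type in the latter. Among the 76 entries that were high in the mir-200c clone alone, the median was 1.21 in that clone and 0.59 in the double knockout, and 42 exceeded 0.5 there too. These are counts over entries of single clones, with no test. The entries were selected for a large difference, mostly through an extreme value in the mir-200c clone. Such selection can by itself place the double knockout nearer the mir-141 clone and its medians nearer wild type. The share over all entries, which were not so selected, is therefore no like background, and the part of this selection was not tested.

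In set 2 the same count, with the same limit, read differently. There 106 entries were above 1 (1.15%) and 88 were below −1 (0.952%), together 194 (2.1%). The double knockout was nearer the mir-200c clone for 79 of the 106 (74.5%) and 43 of the 88 (48.9%), where 56.1% of all entries were.

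No gene passed the test over both sets. limma, fitted to all 9245 entries over the 8 libraries with genotype and set as terms, called 0 (0.0%) at an adjusted p under 0.05, with 3 residual degrees of freedom and a smallest adjusted p of 0.911. At an unadjusted p under 0.05 there were 407 entries (4.4%), 193 higher in the mir-200c knockout and 214 lower. In simulated data of the same size 51% of 2-fold and 84% of 4-fold changes present in both sets were called. The simulation placed each change beside the same entry in both sets. If set 2 values stand beside wrong names, these shares do not apply and the test cannot find a gene's difference.

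Few entries had a 2-fold difference in both sets. SLC16A5 was lower in the mir-200c knockout in both, with −0.00 for the mir-141 clone and −1.90 for the mir-200c clone in set 1, and 0.44 and −1.24 in set 2. Its mean difference was −1.79 ± 0.22 (limma's moderated SE from the fit over 8 libraries), and limma gave an unadjusted p of 9.9e-05 and an adjusted p of 0.911. FAM105B, also called OTULIN, a deubiquitinase of linear ubiquitin chains, had differences of 1.01 and 1.32. These were the sole entries below −1 in both sets (0.0108%) and above 1 in both (0.0108%), and they are named after their values were seen. TNS4, PPP1R1B and SMOC1 were beyond 1 in both sets but in opposite directions, at 1.13 and −1.0015, −1.38 and 1.16, and −1.32 and 2.40. Of the 117 and 78 entries, 57 (48.7%) had a difference above 0 in set 2 and 33 (42.3%) one below 0, so the sign carried over no more often than it did for all entries. With set 2 names in doubt, neither a match nor a mismatch between sets can be read as a result about a named gene.

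Markers of the cell type differed little between the clones. EPCAM, an epithelial surface protein, was at 0.08 in the mir-141 knockout and 0.06 in the mir-200c knockout of set 1, and ERBB2 at −0.18 and −0.14. Over the 8 luminal epithelial markers measured, which include KRT8, KRT18, KRT19 and CLDN7, differences ran from −0.02 to 0.26. Genes beside the deleted hairpins on chromosome 12 had differences of 0.06 (PTPN6), −0.20 (C12orf57) and −0.36 (ATN1). Of the markers of other cell types, 3 of 9 fibroblast, 3 of 7 blood cell and 1 of 4 endothelial genes were in the table. The fibroblast genes were COL5A1 (1.59), COL1A1 (−0.31) and COL5A2 (−0.23), the blood cell genes LCP1 (1.18), CD68 (−1.002) and CORO1A (−0.53), and the endothelial gene CDH5 (0.63). Their part in other results was not tested.

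Gene lists were compared with the table as a whole, in which 7.3% of entries had a difference above 0.5, 6.31% one below −0.5 and 47.6% one above 0. Of the 23 lists with 5 or more measured members, 8 had a set 1 median above 0.2 (7 without near-identical copies) and 2 a median below −0.2. In set 2 no list median was beyond 0.2, but with set 2 names in doubt this cannot show that the list shifts were absent there. No member of any list passed the limma test. Because the lists were written with earlier results of these data known, their medians and counts support nothing by themselves. The shares over all entries stand beside them for description only.

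**Figure D3:**
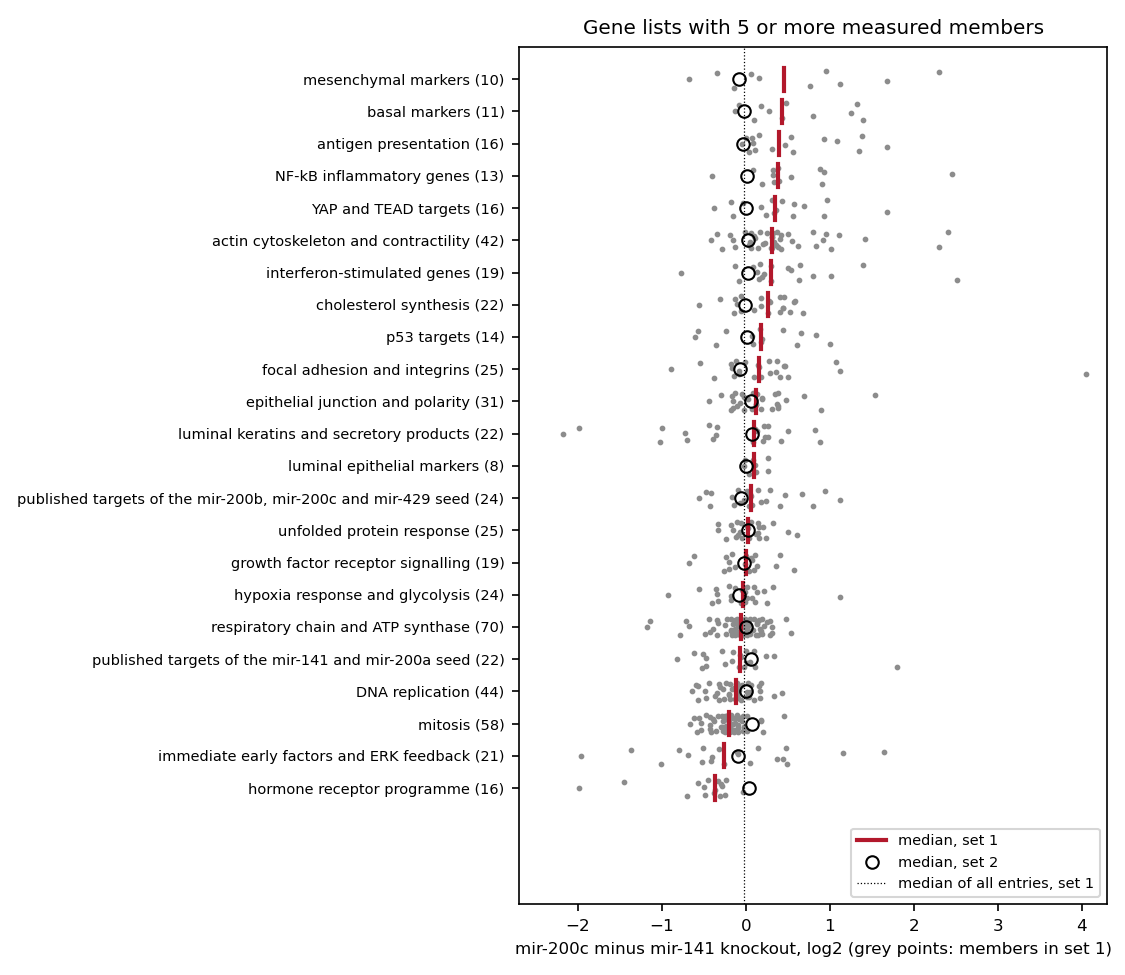
Differences between the mir-200c and mir-141 knockouts, log2, by gene list, with the number of measured members in brackets. Grey points are members in set 1, red bars the set 1 medians, open circles the set 2 medians and the dotted line the median of all entries. Red bars run from −0.37 to 0.46, while the circles stay within 0.1 of 0. Set 2 names may be wrong, so the circles cannot show whether a list shift was repeated.

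Genes of the actin cytoskeleton and contractility stood higher in the mir-200c clone of set 1. Of 42 measured members, 35 had a difference above 0, 11 one above 0.5 and none one below −0.5, with a median of 0.31. Beyond MYL9 and TAGLN these were TPM1 (1.42), the non-muscle myosin heavy chains MYH10 (1.11) and MYH9 (0.54), the actin cross-linkers FLNA (1.01) and ACTN1 (0.63), the thin-filament regulator CALD1 (0.96), the membrane linker EZR (0.91), the focal adhesion protein ZYX (0.83) and the filament-severing CFL2 (0.80). The non-muscle actins themselves differed less, with 0.41 for ACTG1 and 0.06 for ACTB. The list medians were 0.07 in the mir-141 clone, 0.30 in the mir-200c clone and 0.09 in the double knockout of set 1, which was nearer the mir-200c clone for 17 of the 42, and the set 2 median difference was 0.02.

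Targets of YAP and TEAD, regulators that respond to cell tension and shape, had a median of 0.34, with 6 of 16 above 0.5 and none below −0.5. They included NT5E, the matricellular proteins CTGF (0.96) and CYR61 (0.69), and the stress gene GADD45B (0.93). Focal adhesion and integrin genes had a lower median of 0.15, with 4 of 25 above 0.5 and 2 below −0.5. PARVB, the fibronectin receptor chain ITGA5 (1.12) and the kinase SRC (1.07) were at one end, and the actin-linking TNS1 (−0.89) at the other.

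Mesenchymal and basal markers were above the table as a whole in the mir-200c clone. Of 10 mesenchymal markers measured of 32 on the list, 5 were above 0.5 and 1, the repressor SNAI1 (−0.68), was below −0.5. The median of 0.46 was 0.11 without NT5E and QKI, which lie on the part of chromosome 6 described below. FN1, fibronectin, was above wild type in both single knockouts, at 1.17 and 1.23. The basal list, which includes keratins of the outer breast epithelial layer, had a median of 0.43 with 4 of 11 above 0.5, and of 0.23 without near-identical copies. KRT17 was at 0.94 in the mir-141 clone and 2.20 in the mir-200c clone, KRT16 at 0.41 and 1.74, and the annexin ANXA3 at 0.24 and 1.63, the keratins being uncertain because of near-identical copies. EGFR, also on that list, was at −0.05 and 0.05.

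Junction genes did not move as a body. Of 31 measured, 3 were above 0.5 and none was below −0.5. CLDN1, a tight junction protein, was at −0.01 in the mir-141 clone, 1.53 in the mir-200c clone and 2.04 in the double knockout. MARVELD3, another tight junction protein, and PKP2, a desmosomal plaque protein, had differences of 0.90 and 0.69 in set 1 and 1.45 and 1.01 in set 2. Their unadjusted limma p-values were 0.0094 and 0.00452, and the adjusted p was 0.911 for both.

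Immune gene lists stood higher in the mir-200c clone. Antigen presentation genes had a median of 0.39, with 7 of 16 above 0.5, none below −0.5 and 15 above 0. Among these were the uncertain HLA-B, HLA-C (1.39) and HLA-E (0.56), the immunoproteasome subunit PSMB8 (1.09), the peptide transporter subunit TAP1 (0.93) and the peptidase ERAP1 (0.54). B2M, the light chain of class I molecules, was at 0.07. The median was 0.13 without near-identical copies. With 8 of the 16 on chromosome 6, it was 0.08 without the members on chromosomes 6, 13, 18 and 22. None of the 16 lay on the part of chromosome 6 described below. Interferon-stimulated genes had a median of 0.30 with 8 of 19 above 0.5, among them GBP1, GBP2 (1.40), IFIT1 (1.02) and the ubiquitin-like ISG15 (0.80). IFITM2 alone was below −0.5 (−0.77), an uncertain value because of near-identical copies. Inflammatory genes of the NF-kB pathway had a median of 0.38 with 5 of 13 above 0.5, including CD40, the pathway inhibitors TNFAIP3 (0.93) and NFKBIE (0.91), and the iron-binding LCN2 (0.88). LCN2 was above wild type in all 3 clones of set 1, at 0.64, 1.53 and 2.49.

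The hormone receptor programme stood lower in the mir-200c clone. All 16 measured genes of the hormone receptor list, out of 22, had a difference below 0 in set 1, where 52.4% of all entries did. The median was −0.37 and 4 were below −0.5. GATA2, a zinc finger transcription factor, was at −2.64 in the mir-141 clone, −4.09 in the mir-200c clone and −3.28 in the double knockout, low in all 3. The secreted TFF3 was at 0.44, −0.26 and −0.25, and CA12, a carbonic anhydrase, at −0.02, −0.58 and 0.35. The luminal factors SPDEF, GATA3 and FOXA1 had differences of −0.46, −0.38 and −0.30. CCND1, cyclin D1, was near equal at −0.03. In set 2 the median was 0.04 and 10 of the 16 were above 0.

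Immediate early and ERK feedback genes were split. Of 21, 7 were below −0.5 and 2 were above 0.5, with a median of −0.26. EGR1, the ETS factor ETV4 (−1.37), the nuclear receptor NR4A1 (−1.01), FOS (−0.70), IER3 (−0.80) and the ERK pathway inhibitors SPRY4 (−0.52) and DUSP4 (−0.51) were lower in the mir-200c clone. ATF3 and JUN were higher. JUN, the partner of FOS in AP-1, was above wild type in every set 1 clone, at 0.68 in the mir-141, 1.83 in the mir-200c and 1.48 in the double knockout.

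Of 58 mitosis genes 52 had a difference below 0, 6 were below −0.5 and none was above 0.5, with a median of −0.20. The kinesin KIF20A (−0.67), the checkpoint kinase BUB1 (−0.61), the ubiquitin enzyme UBE2C (−0.58) and CKS2 (−0.55), a subunit of cyclin-dependent kinases, were the lowest. The mitosis medians were −0.07 in the mir-141 clone, −0.27 in the mir-200c clone and −0.22 in the double knockout. DNA replication genes had a median of −0.12, with 13 of 44 above 0 and 4 below −0.5, led by the helicase cofactor CDC45 (−0.65). In set 2 the mitosis median was 0.07, on the other side of 0.

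Cholesterol synthesis genes had a median of 0.27, with 4 of 22 above 0.5 and 1 below −0.5. HMGCS1, an early enzyme of the pathway, was at −0.26 and 0.42 in the mir-141 and mir-200c clones, and INSIG1, its feedback regulator, at −0.45 and 0.13, whereas EBP was at −0.11 and −0.67. Respiratory chain genes had a median of −0.05 with 5 of 70 below −0.5, led by NDUFA12 (−1.18) and ATP5J2 (−1.14). The list of luminal keratins and secretory products had a median of 0.10, with 3 of 22 above 0.5, 6 below −0.5 and 12 above 0. TFF1 and S100A7 were at its lower end and LCN2 (0.88) at its upper end. Targets of p53 had a median of 0.18, with SESN1 (1.00), a stress regulator, and the cell cycle inhibitor CDKN1A (0.83) at the top. Growth factor receptor, hypoxia and unfolded protein response lists had medians of 0.00, −0.03 and 0.02.

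Published targets of either seed gave the direct question: genes relieved by loss of mir-200c would be read above 0 and genes relieved by loss of mir-141 below 0. Of 24 measured targets of the mir-200b, mir-200c and mir-429 seed, 15 had a difference above 0, 4 were above 0.5 and 1 was below −0.5, with a median of 0.06. Those above 0.5 were QKI, an RNA-binding splicing regulator (1.12), MARCKS, a membrane-bound actin regulator (0.94), CFL2, and TUBB3, a beta-tubulin (0.67). VEGFA, a secreted angiogenic factor, was below −0.5 at −0.56. QKI and MARCKS lie on the part of chromosome 6 described below. CFL2 was at 0.10 without mir-141, 0.90 without mir-200c and 0.76 without both, with a set 2 difference of 0.37.

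Of 22 measured targets of the mir-141 and mir-200a seed, 8 were above 0, 4 were below −0.5 and 1 was above 0.5, with a median of −0.07. E2F3, a cell cycle transcription factor (−0.82), the receptor kinase EPHA2 (−0.62), the phosphatase CDC25A (−0.53) and ZMPSTE24 (−0.51), the lamin protease, were below −0.5. STAT5A, with 1.80, stood at the other extreme although it is listed for that seed. EPHA2 was at 0.63 in the mir-141 clone, 0.01 in the mir-200c clone and 0.62 in the double knockout, that is, high in both set 1 clones without mir-141. For E2F3 the mir-141 clone was at 0.10 and the mir-200c clone at −0.72. Set 2 medians were −0.06 for the first list and 0.06 for the second. Some published targets also hold a site for the other seed, as QKI, CFL2 and E2F3 do.

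Seed matches were then counted in the 3′ untranslated regions of 9209 entries. A 7-base site was a match to bases 2 to 8 of the microRNA, CAGTATT for mir-200c-3p and CAGTGTT for mir-141-3p, or a match to bases 2 to 7 followed by an A, AGTATTA and AGTGTTA. An 8-base site, CAGTATTA or CAGTGTTA, holds both. Matches were searched on the transcript strand, and 25.2% and 27.2% of entries held at least 1. A match is a description of the sequence and no evidence that the site is used.

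Over all sites the shift was small. The median difference was 0.01 for 1234 entries with only a mir-200c-3p site, −0.02 for 1414 with only a mir-141-3p site, −0.00 for 1091 with both and −0.02 for 5470 with neither. The median for entries with only a mir-200c-3p site was 0.0273 above that for entries with neither, and the median with only a mir-141-3p site was 0.0034 below it (−0.0034). A control seed of a microRNA that was not targeted, mir-122-5p, gave 0.0165 between entries with and without its sites, against 0.0239 for mir-200c-3p and −0.0013 for mir-141-3p computed alike. The other control seeds gave −0.0088 for mir-1-3p and −0.0011 for mir-142-5p, and mir-200c-5p gave 0.0002. The 2-fold differences held no more sites than the table: 28 of the 117 (23.9%) and 15 of the 78 (19.2%) had a mir-200c-3p site.

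Sites of 8 bases were examined next. Of 465 entries with such a site, 53 (11.4%) were above 0.5 and 13 (2.8%) were below −0.5, whereas 7.1% and 6.4% of entries without one were. For mir-141-3p the 520 entries gave 7.1% above and 5.8% below, beside 7.3% and 6.3% without such a site. Among control seeds the share above 0.5 ran from 3.2% for mir-122-5p to 8.5% for mir-142-5p, and the passenger strand mir-200c-5p gave 8.9%. The share below −0.5 ran from 4.7% for mir-1-3p to 7.4% for mir-122-5p. The control mir-122-5p was thus itself uneven, in the other direction. In the longest tertile of 3′ untranslated region lengths it gave 1.5% above and 7.6% below. Within the middle tertile of 3′ untranslated region lengths the mir-200c-3p shares were 14.7% above and 4.3% below, where entries without such a site gave 7.3% and 5.6%. In the longest tertile, which holds 324 of the 465, they were 9.0% and 2.5%, beside 6.2% and 5.0% without a site. There mir-142-5p gave 8.9% and mir-200c-5p 8.7% above 0.5, and in the middle tertile mir-200c-5p gave 12.8%. Without entries on chromosomes 6, 13, 18 and 22 they were 10.6% and 2.0%. In set 2 they were 7.3% and 3.9%, where 5.43% and 5.39% of all entries were above 0.5 and below −0.5. These 8-base counts were added after seeing the data.

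**Figure D4:**
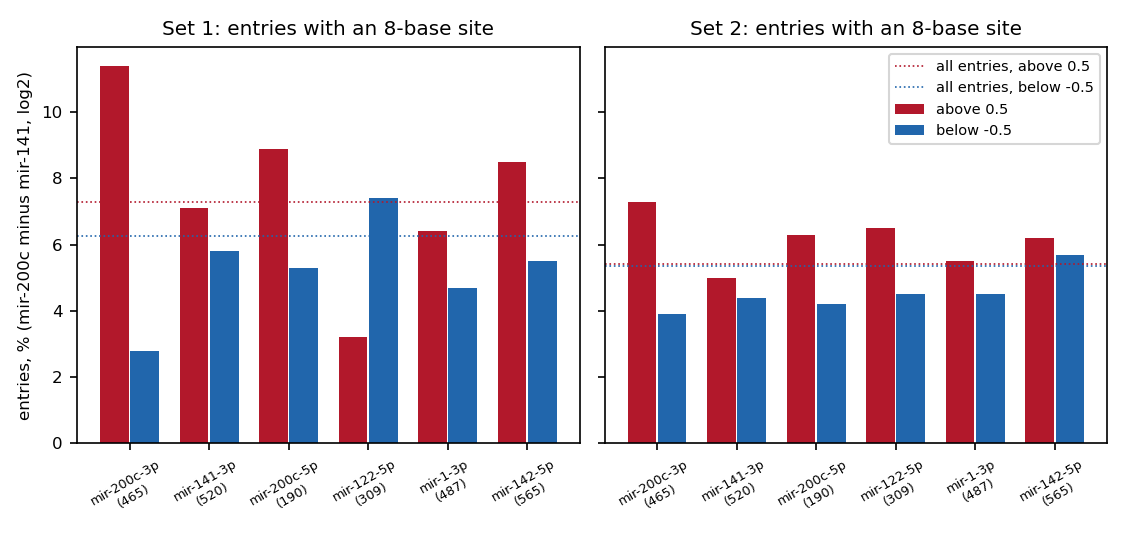
Share of entries with an 8-base site whose difference was above 0.5 (red) or below −0.5 (blue), for 6 seeds in set 1 (left) and set 2 (right), with the number of entries in brackets and dotted lines for all entries. In set 1 the mir-200c-3p bars are 11.4% and 2.8%, and the mir-141-3p bars 7.1% and 5.8%. Set 2 names may be wrong, so the right panel cannot show whether a share was repeated.

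Of 9209 entries, 465 held an 8-base mir-200c-3p site. They included 12 of the 117 entries with a difference above 1 and 1 of the 78 with a difference below −1. Of the 12, 7 are shown here, named after their values were seen. NSMAF had the highest difference of the 12 but was below wild type in all 3 clones of set 1, including the mir-200c clone, as given above. Each sequence is part of the GENCODE 29 transcript on its own strand (GRCh38), with the site in capitals, and is shown so that the match to the seed given above can be read.
RND3: tgctttgggCAGTATTAcaaaatagc
SYDE1: caaccaaatCAGTATTAgctttgagc
JUN: gatctcattCAGTATTAaagggggga
TIMP2: gacaataaaCAGTATTAtcaaagaga
PTPN21: accaggtatCAGTATTAtctgcaact
QKI, upstream site: cttggttctCAGTATTAtcattcttt
QKI, downstream site: tttttctgaCAGTATTAtgtaatttt
OSTM1, upstream site: cccccattgCAGTATTAttgttatat
OSTM1, downstream site: agcacctttCAGTATTAtgtatttgt
RND3, an atypical small GTPase that opposes contraction, was at 0.02 in the mir-141 clone, 1.08 in the mir-200c clone and 0.88 in the double knockout. SYDE1, an activator of GTP hydrolysis by small GTPases, was at 0.15, 1.17 and 0.58, and TIMP2, an inhibitor of matrix metalloproteinases, at −0.18, 0.98 and 0.58. In these 3 the double knockout, which lacks both microRNAs, was above wild type with the mir-200c clone. PTPN21, a tyrosine phosphatase, was at −0.52, 0.59 and 0.07, with the double knockout near wild type. OSTM1 stood at 0.29, 2.03 and 1.32, and QKI at −0.19, 0.93 and 0.67. In set 2 the differences were −0.22 for RND3, 0.16 for SYDE1, −0.13 for TIMP2, −0.06 for PTPN21, 0.01 for OSTM1 and −0.15 for QKI.

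Sites of 8 bases for mir-141-3p also occurred in genes that were low in the mir-141 clone. KHNYN, PARVB and FHL2, among the 20 highest, each held 1, and their contexts are shown for comparison with the sites above.
KHNYN: gccctggcaCAGTGTTAtgtggactg
PARVB: acgcccacaCAGTGTTAtgcaagcac
FHL2: gctctgtccCAGTGTTAtggatccac
In the clone without mir-141 these genes were at −4.68, −3.82 and −0.57, below wild type. At the lower end, RFTN1, a lipid raft protein, held an 8-base mir-141-3p site and was at 0.67 in the mir-141 clone, −0.32 in the mir-200c clone and 1.24 in the double knockout, and TNS1 at 0.18, −0.71 and 0.17.

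Differences in set 1 also followed position in the genome. By GENCODE 29 (GRCh38), 4 chromosomes had medians beyond 0.1: chromosome 22 at −0.24 over 246 entries, chromosome 18 at −0.19 over 118, chromosome 13 at 0.11 over 157 and chromosome 6 at 0.11 over 467. In set 2 no chromosome median was beyond 0.0374. Medians of 20 neighbouring genes had an SD of 0.11 in set 1 and 0.06 in set 2. If set 2 names are wrong, such medians mix genes from other places. They therefore cannot show whether the regional shifts were absent in set 2.

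**Figure D5:**
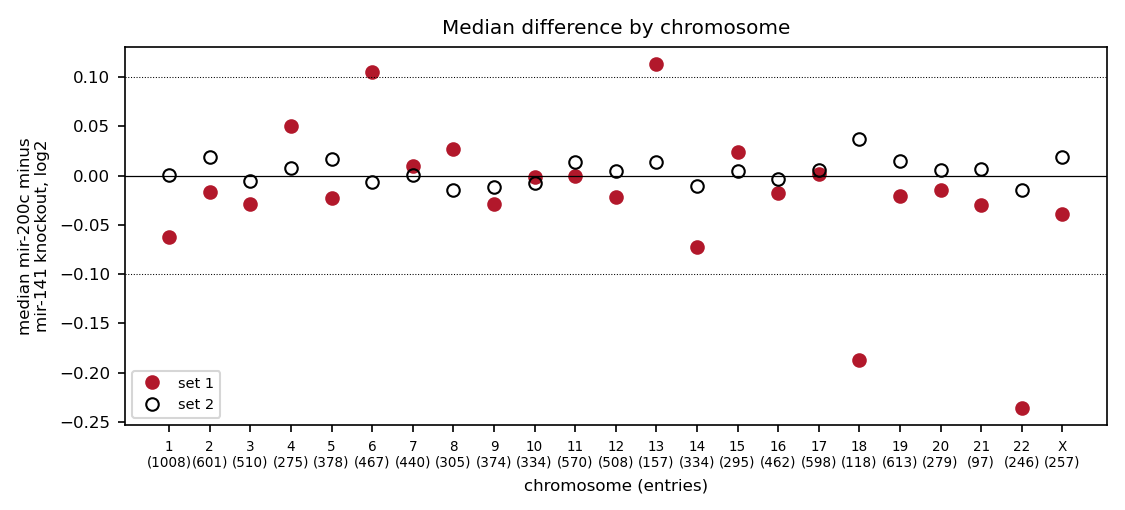
Median difference between the mir-200c and mir-141 knockouts by chromosome, log2, in set 1 (filled) and set 2 (open), with the number of entries in brackets. Dotted lines mark 0.1 and −0.1. Chromosomes 6, 13, 18 and 22 lie beyond them in set 1, at 0.11, 0.11, −0.19 and −0.24, and none does in set 2. Set 2 names may be wrong, so the open points cannot show whether a shift was absent there.

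On chromosome 6 the shift lay in its distal part. Of 165 entries from 80 Mb on, a boundary chosen after seeing the data, 151 (91.5%) had a difference above 0, against 46.8% of all other entries. Their median ratio was −0.04 in the mir-141 clone, 0.31 in the mir-200c clone and −0.04 in the double knockout, so it was the mir-200c clone that stood apart. The 20 genes from FUCA2 to MTHFD1L had the highest run median, 0.54, with 18 of 20 above 0. MICAL1, RAB32, PPP1R14C, OSTM1 and NT5E of the 20 highest lie in that distal part, as does CGA (−2.42) of the 20 lowest. So do TNFAIP3, CTGF, QKI, MARCKS, EZR and SESN1. The interval from 20 to 40 Mb, which holds the HLA genes, had a median of −0.07.

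On chromosome 18 the mir-141 clone stood apart, together with the double knockout. Of 49 entries from 40 Mb on, a boundary also chosen after seeing the data, 48 had a difference below 0, where 52.4% of all entries did. The median ratio there was 0.57 in the mir-141 clone, 0.00 in the mir-200c clone and 0.87 in the double knockout. The lowest run of 20 genes, from ATP5A1 to FECH, had a median of −0.57. On chromosome 22 all 3 clones of set 1 were below wild type, at −0.10 without mir-141, −0.34 without mir-200c and −0.28 without both. CDC45 and the respiratory subunit UQCR10 (−0.79) lie on that chromosome. The part of these regional shifts in the values of single genes was not tested.

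A smaller run lay in the S100 gene cluster of chromosome 1, whose products are small calcium-binding proteins. Of 13 S100A genes measured there, 11 had a difference below 0 (52.4% of all entries did) and 6 were below −1 (0.844% of all). Their median was −0.46. S100A3 was at 0.08 in the mir-141 clone, −1.55 in the mir-200c clone and 1.14 in the double knockout, and S100A5 at −0.32, −1.55 and −0.51. S100A8 and S100A9, which form the secreted complex calprotectin, were at 0.35 and 0.34 in the mir-141 clone, −0.65 and −0.68 in the mir-200c clone, and 0.65 and 0.23 in the double knockout. S100A10 (0.48) and S100A16 (0.18) were the 2 above 0. In set 2 the median difference of the 13 was 0.00, and S100A10 stood at −0.88. The S100 genes were grouped after their values were seen.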

How the data were processed

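RNA of 8 SK-BR-3 samples was sequenced. The authors deposited 6 columns of log2 ratios, each clone divided by wild type within a set, covering 9245 mRNA entries named by RefSeq accession. The submitters' processing notes name TopHat2 and GRCh37.p10; the counting, filters and the statistic behind the ratios were not given in the sources used here. This table held 0 columns from outside this series. The difference between the single knockouts was computed per entry and set. limma 3.58.1 (R 4.3.3) fitted all 8 libraries, wild type entered as 0, with genotype and set, and p-values were adjusted by Benjamini-Hochberg over all entries; a set marks a shared experiment in the labels and is the replicate block. The fit was tested on simulated data of 9245 entries, with 5 false calls. With 1 clone per genotype and set, p-values measure the spread between 2 clones. Set 1 differences have no test. Annotation came from GENCODE 29 (9011 entries matched by RefSeq accession, 215 by symbol, 19 unmatched), and microRNA sequences from the RefSeq table. Named genes are the 20 highest and 20 lowest differences, the 4 largest of each list (all members of lists up to 12), cell type and hairpin neighbours, and the leading 5 on opposite sides of wild type in each direction; others are members beyond 0.5, or named after their values were seen. A few members are not reported here. Members and lists were chosen with earlier results of these data known. Alternatives were centring, scaling, 1 entry per symbol without near-identical copies, 6 knockout libraries, no block, robust variance, other site definitions, run lengths and each library left out.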

Additional observations from a re-analysis of the deposited data

How the results depend on the processing

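The planned control seed mir-124-3p was not used, as its sequence was not at hand. The ratios carry no depth, so low-count genes cannot be told from others. The count of genes called by limma was 0 after centring, with the 6 knockout libraries alone, with robust variance, without near-identical copies, and with no replicate block, where 96 had an unadjusted p under 0.05. Leaving out each library in turn gave 0 to 1: ECI2 was called without the mir-141 clone of set 1 (adjusted p = 0.0324), SLC26A11 without the mir-200c clone of set 1 (0.00808) and HIST1H2BH without the mir-200c clone of set 2 (0.0337), each resting on the 1 clone left in an arm, which is assumed to vary like the others. Without set 1, lists with medians above 0.2 numbered 0 and lists below −0.2 numbered 0. Chromosomes beyond 0.1 then numbered 0, the highest run was 0.192 and the lowest −0.2578. These values rest on set 2, whose names may be wrong, so they cannot show that the set 1 shifts were absent there. With runs of 10 genes in set 1 the lowest was −0.8283. The excess of entries with only a mir-200c-3p site over neither was 0.0438 with 8-base sites, 0.0202 in the middle tertile of lengths, 0.0379 as a mean and 0.0198 in set 2. For only mir-141-3p sites these were −0.0019, −0.0152, −0.0005 and −0.0031, and for both sites −0.0017, 0.0302, 0.0194 and 0.0191; the cause was not tested. Counts above 1 and below −1 were 121 and 75 after centring, 95 and 76 after scaling, and 111 and 70 without near-identical copies.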
